A study of Mus musculus with 7 samples.

Results

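The collagen gene family was described in RNA from whole abdominal aortas of mice. Its members were the genes of the deposited table whose symbol is Col, a number, the letter a and a number, which gave 44 of 32544 genes. Each of the 44 symbols matched a GENCODE M21 gene (mm10, also called GRCm38). The aortas came from male Apoe-/- mice, whose arteries develop plaques for lack of apolipoprotein E, after 12 weeks of high-fat feeding. Over that time ITA-LNP or Ctrl-LNP was given into the vein 1 time a week at 50 mg/kg. LNP usually stands for lipid nanoparticle, and the series title names itaconate, a metabolite of activated macrophages, for ITA. ITA-LNP had 3 libraries and control-LNP 4, and genotype, sex and diet were the same in both groups. Nothing in the labels ties each library to its own mouse, so p-values here rest on the spread between libraries, which may be partly technical.

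Collagens are proteins of the extracellular matrix in which chains wind around each other as a triple helix. Glycine recurs at a fixed interval along a helical chain, being the residue small enough for the inside of the helix. Fibrillar collagens form the tension-bearing fibers of the arterial media and adventitia, and basement membrane collagens form the sheets under endothelium and around smooth muscle cells. FACIT collagens sit on the surface of fibrils, network collagens form lattices, and transmembrane collagens stay anchored in the cell membrane. In an artery, smooth muscle cells and fibroblasts make most fibrillar collagen.

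The coding sequences showed how the classes differ. Below are 90 bases from the start of the longest unbroken run of glycine triplets in 4 of the most abundant members. They were read from the GENCODE M21 transcripts, 5′ to 3′. The glycine codon that opens each triplet of codons is in capitals, and glycine codons at other positions, as in Col3a1, are in lower case. These stretches are shown because this repeat is the feature that all members share and that the naming rule did not use.
Col1a1 (codons 168 to 197): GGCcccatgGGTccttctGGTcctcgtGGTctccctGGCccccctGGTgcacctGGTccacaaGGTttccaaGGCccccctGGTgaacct
Col1a2 (codons 97 to 126): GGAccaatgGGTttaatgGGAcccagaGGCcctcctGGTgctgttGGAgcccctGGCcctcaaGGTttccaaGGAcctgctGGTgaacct
Col3a1 (codons 164 to 193): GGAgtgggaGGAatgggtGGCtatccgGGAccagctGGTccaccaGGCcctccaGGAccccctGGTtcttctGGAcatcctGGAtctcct
Col4a1 (codons 43 to 72): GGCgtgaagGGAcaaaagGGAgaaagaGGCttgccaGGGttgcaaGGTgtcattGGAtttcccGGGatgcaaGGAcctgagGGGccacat

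In the fibrillar genes the longest run held 216 to 344 triplets, with 338 in Col1a1, 339 in Col1a2 and 344 in Col3a1. In the basement membrane genes it held 39 to 66, and the helix was split into 22 to 27 runs of 5 or more triplets, against 2 to 3 runs in the fibrillar genes. The network genes had 9 runs each, the longest of 59 to 60 triplets. In the multiplexins, a small class that carries other domains between its helical parts, the longest run was 30 triplets in both genes. The beaded filament genes, those of type VI collagen, had 11.7% to 31.9% of their codons in such runs, against 53.5% to 77.2% in the fibrillar and 74.9% to 78.8% in the basement membrane genes.

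The libraries held 5077073 to 7281721 reads, and a count of 0 allows a level of up to 0.412 to 0.591 CPM depending on the library (CPM is reads per 1000000 reads; the limit covers counting error only). The kit reads transcripts from their 3′ end, so CPM does not grow with gene length. The smooth muscle, fibroblast and white adipocyte markers were low in the libraries labelled control-LNP, and other markers of the wall were not all so. The 6 smooth muscle markers summed to 15971 to 19373 CPM in the ITA-LNP and 114 to 210 CPM in the control-LNP libraries, and the 6 fibroblast markers to 4412 to 5522 and 42.8 to 156 CPM. The 6 white adipocyte markers summed to 5759 to 7188 and 49.9 to 329 CPM. The 6 endothelial markers differed less, at 631 to 771 and 105 to 364 CPM. The 4 Schwann cell markers summed to more in the control-LNP libraries, at 49.8 to 68.4 and 93.7 to 148 CPM. Gene by gene they did not share that direction, as 1 of the 3 tested was called higher with ITA-LNP and 0 lower. The platelet markers summed to 37.1 to 139.9 and 4249 to 6065 CPM, and the B cell markers to 4.81 to 25.1 and 548 to 1608 CPM. The T cell markers summed to 0.941 to 16.5 and 156 to 408 CPM, and the neutrophil markers to 44.2 to 60.6 and 876 to 25494 CPM. For the erythroid markers the sums were 2550 to 4229 and 12380 to 44685 CPM. The macrophage markers overlapped between the groups, at 306 to 441 and 197 to 504 CPM. The part of these differences in the collagen results was not tested. In whole tissue, fewer cells of a type, less RNA per cell and a different make-up of the sample itself cannot be told apart. Whether the libraries of both groups hold the same tissue was not tested. Control-LNP replicate 2 stood apart, with 10846 genes detected against 14232 to 15333 in the other control-LNP libraries.

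Collagen transcripts were abundant in the ITA-LNP aortas and scarce in the libraries labelled control-LNP. The 44 genes together reached 24654, 21827 and 23793 CPM with ITA-LNP, and 293, 233, 138 and 180.1 CPM in the 4 controls. The means were 23425 ± 1449 CPM and 211 ± 67.0 CPM (SD, n = 3 and 4), and the control-LNP mean was 0.900% of the ITA-LNP mean. Beside it, the summed smooth muscle markers stood at 0.848% and the summed fibroblast markers at 1.68% of their ITA-LNP level in the control-LNP libraries. Of 28 collagen genes with an ITA-LNP mean of at least 10 CPM, 23 had a control-LNP mean under 2% of it, against 8.79% of the 8790 genes of that level.

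Of the 44 genes, 32 passed the filter on low values and were tested with limma. After ITA-LNP 23 were higher and 0 were lower, where 10.3% of all 12636 tested genes were higher and 5.15% lower. The count of lower genes was also 0 at an unadjusted p under 0.05 and with limma-voom on recovered reads. The filter takes the mean over all 7 libraries, so members scarce in the control-LNP libraries passed through their ITA-LNP values. Col5a3, with 0 reads in all control-LNP libraries, could only come out higher. The split and the median fold of the tested members are in part set by this. Without the filter 43 members were tested, 4 had a negative fold, and 0 were lower at a limma unadjusted p under 0.05. Without control-LNP replicate 2, 23 members were higher and 0 lower, where 15.4% of tested genes were higher and 16.0% lower, and with median centring as well the 23 stood against 13.8% and 19.8%. All 3 ITA-LNP libraries lay above all 4 control-LNP libraries in 24 genes, an order found in 19.1% of tested genes, and no member had the opposite order. The median log2 fold change of the 32 tested members was 5.29, against 0.15 over all tested genes. Fold changes are differences on the log2(CPM + 1) scale, ITA-LNP minus control-LNP, and understate the change of low genes. Centring each library on its median moved the median of all tested genes to -0.98, and 19 members were then called higher.

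**Figure D1:**
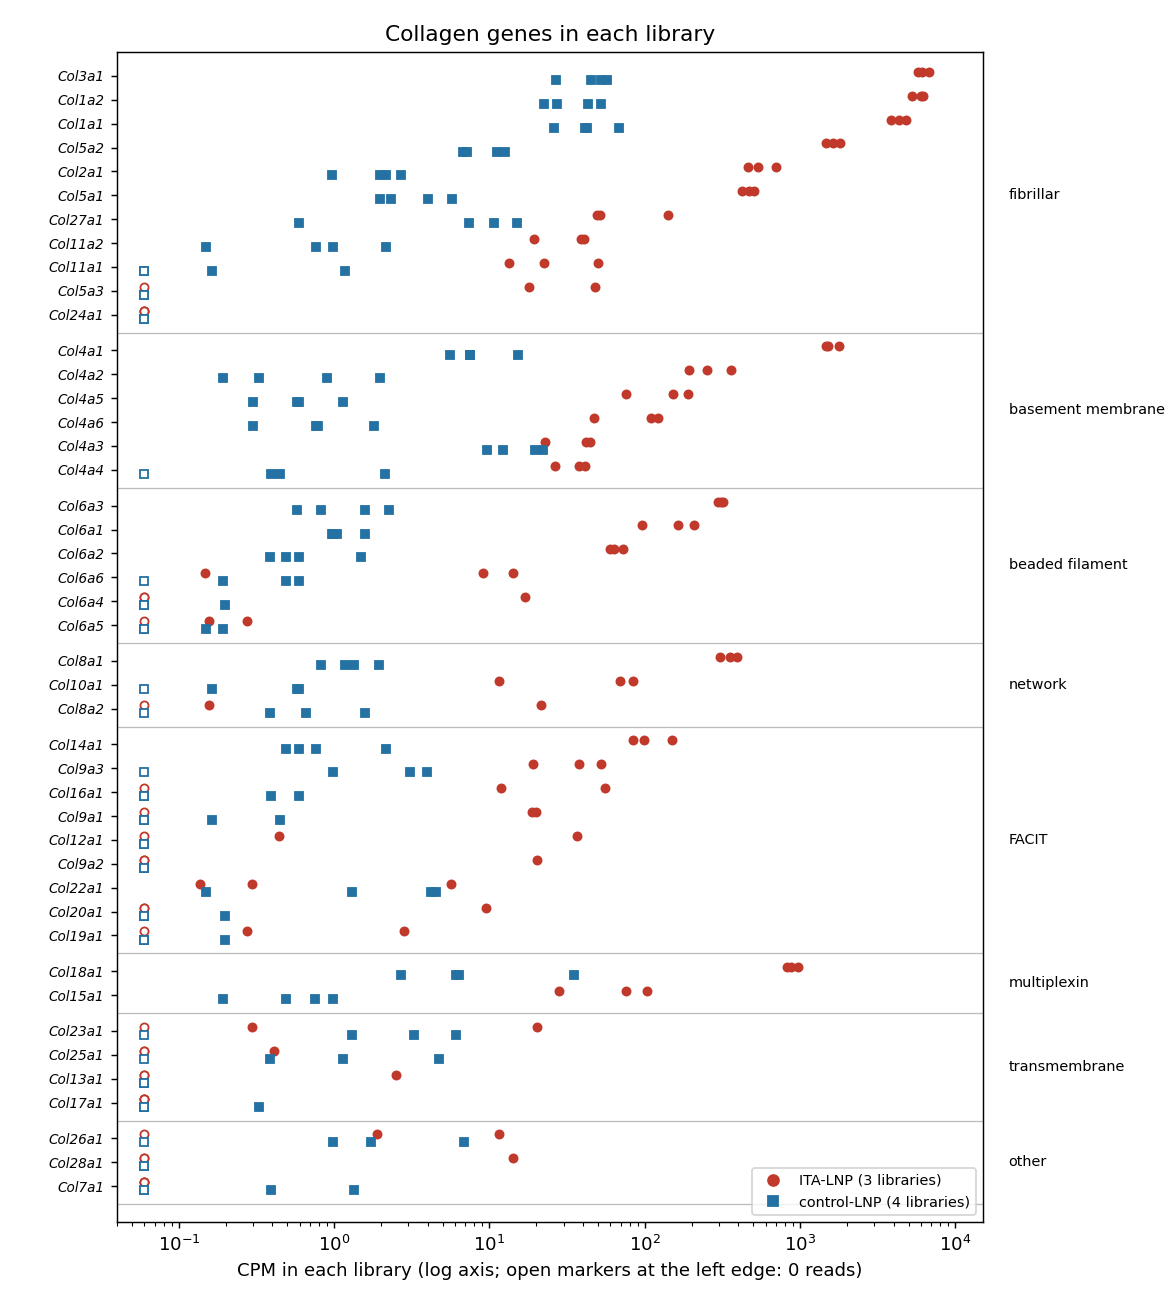
CPM of the 44 collagen genes in each library on a log axis, by class; red circles are the 3 ITA-LNP and blue squares the 4 control-LNP libraries, and open markers at the left edge are libraries with 0 reads. Col3a1, Col1a2 and Col1a1 lie at 3838 to 6794 CPM in the ITA-LNP and 22.3 to 68.3 CPM in the control-LNP libraries, while the transmembrane genes and Col26a1 and Col22a1 overlap between the groups.

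Fibrillar collagens carried most of the signal, and 9 of the 10 tested (11 in all) were higher. Col3a1 (chromosome 1, 45311538 to 45349706), the chain of type III collagen, was the most abundant member. It was measured at 6794, 5699 and 6087 CPM after ITA-LNP, against 56.7, 52.3, 26.9 and 44.9 CPM in the 4 controls. The groups were far apart and the ITA-LNP libraries within 1.19-fold of each other. This gave a log2 fold change of 7.11 ± 0.32 (± is the SE; limma adjusted p = 5.67e-06).

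Col1a2 and Col1a1 encode the chains of type I collagen, the main fibril of the adventitia. Col1a2 (chromosome 6, 4504814 to 4541544) was at 5962, 5220 and 6173 CPM after ITA-LNP, against 52.2, 43.2, 22.3 and 27.2 CPM in the control-LNP libraries, a log2 fold change of 7.35 ± 0.36 (adjusted p = 5.84e-06). Col1a1 (chromosome 11, 94936224 to 94953042) was at 4795, 3838 and 4324 CPM and at 68.3, 42.2, 26.0 and 41.2 CPM, a log2 fold change of 6.65 ± 0.36 (adjusted p = 9.33e-06). For these 3 genes the lowest control-LNP library was replicate 3 and the highest replicate 1, and each gene was called higher in all 7 fits that dropped a library.

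Col5a2 and Col5a1 encode chains of type V collagen, which sits inside type I fibrils and limits their width. Col5a2 (chromosome 1, 45374321 to 45503282) was at 1469, 1632 and 1807 CPM after ITA-LNP, against 12.6, 11.2, 6.73 and 7.22 CPM in the controls (7.33 ± 0.45, adjusted p = 1.53e-05). Col5a1 (chromosome 2, 27886425 to 28039514) was at 503, 422 and 472 CPM and at 5.71, 4.04, 2.31 and 1.97 CPM (6.77 ± 0.62, adjusted p = 0.000156). Col5a1 thus held 0.342, 0.259 and 0.261 of the Col5a2 level in the ITA-LNP libraries. Col5a3, the remaining type V chain, was at 18.0, 0 and 47.5 CPM with ITA-LNP and had 0 reads in all control-LNP libraries. It did not pass (3.28 ± 1.21, adjusted p = 0.107; 0.00590 without ITA-LNP replicate 2), and its ITA-LNP mean was at least 41.5-fold higher than the limit of 3 reads per control-LNP library.

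Col2a1 (chromosome 15, 97975602 to 98004695), the chain of type II collagen and the fibril of cartilage, had the largest log2 fold change of the tested members on the log2(CPM + 1) scale, while Col4a2 exceeded it with a pseudocount of 0.25 (8.17 against 8.06) and in the ratio of the group means (315 against 291). It was at 538, 459 and 702 CPM after ITA-LNP, against 2.17, 2.69, 0.962 and 1.97 CPM in the controls (7.60 ± 0.63, adjusted p = 9.43e-05). Other collagens of cartilage were present in the ITA-LNP libraries at lower levels. Col11a1 and Col11a2, which encode chains of the type XI collagen that joins type II in fibrils, reached 13.3 to 50.0 CPM and 19.4 to 40.4 CPM with ITA-LNP, with control-LNP means of 0.336 and 1.02 CPM. Their log2 fold changes were 4.35 ± 0.85 (adjusted p = 0.00670) and 4.10 ± 0.85 (adjusted p = 0.00936). Without control-LNP replicate 1 the Col11a1 reads of the control-LNP group came to 1, in replicate 4. With each library centred on its median Col11a1 was no longer called (3.23, adjusted p = 0.0591). Beside these, 5 of the 6 chondrocyte markers were in the table and summed to 233 to 271 CPM in the ITA-LNP and 9.51 to 41.9 CPM in the control-LNP libraries. Of the 4 tested, 3 were higher and 0 lower, beside 10.3% and 5.15% of all tested genes. Marker genes had been set to be given as sums only, so the following 2 are picked examples. Acan, the large proteoglycan of cartilage, was at 54.7, 57.9 and 62.3 CPM with ITA-LNP and under 1 CPM in each control-LNP library. Matn3 had 0 reads in all 7 libraries.

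Col27a1, a fibrillar collagen with a shorter helix, had the smallest fold of the fibrillar members that passed. It was at 51.1, 49.2 and 142 CPM after ITA-LNP, against 14.97, 0.598, 10.8 and 7.38 CPM in the 4 controls, which is 10.5% of the ITA-LNP mean. It passed (3.35 ± 0.97, adjusted p = 0.0452) but lost its call in 11 of 20 alternatives, with an adjusted p of up to 0.200 when ITA-LNP replicate 3 was left out. Col24a1, which also has a shorter helix, had 0 reads in all 7 libraries.

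**Figure D2:**
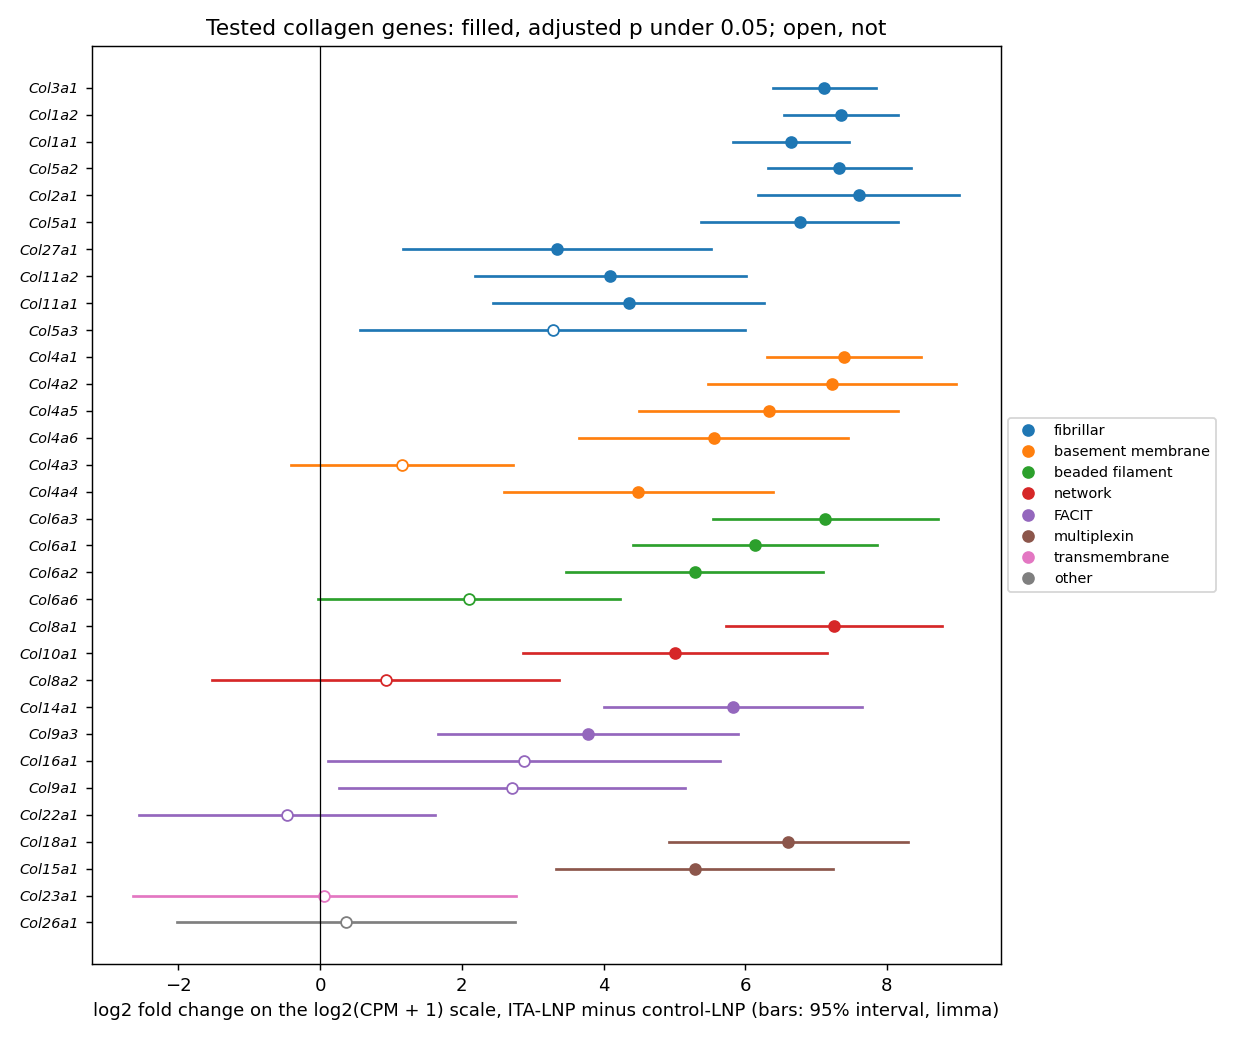
Log2 fold change of the 32 tested collagen genes, ITA-LNP minus control-LNP on the log2(CPM + 1) scale, with 95% intervals from limma; colors give the class, filled points passed an adjusted p of 0.05. The 14 genes with an ITA-LNP mean of at least 100 CPM lie between 5.83 (Col14a1) and 7.60 (Col2a1), and the intervals of Col4a3, Col6a6, Col8a2, Col22a1, Col23a1 and Col26a1 include 0.

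Of the 6 basement membrane genes, which encode type IV collagen, 5 were higher. Col4a1 (chromosome 8, 11198423 to 11312826) was at 1770, 1521 and 1462 CPM after ITA-LNP, against 15.4, 7.48, 5.58 and 7.54 CPM in the controls (7.39 ± 0.48, adjusted p = 2.28e-05). Col4a2 (chromosome 8, 11312805 to 11449287), its partner chain, was at 357, 250.4 and 192 CPM and at 1.97, 0.897, 0.192 and 0.328 CPM (7.23 ± 0.78, adjusted p = 0.000352). The starts of the pair overlap by 22 bases on opposite strands. Over the 3 ITA-LNP libraries Col4a1 had 32255 reads and Col4a2 5374. In the control-LNP libraries they had 203 and 19, too few in single libraries for a test of their ratio. Col4a5 and Col4a6, neighbors on the X chromosome with 1308 bases between their starts, encode another pair of partner chains. Col4a5 was at 153, 189.7 and 75.4 CPM after ITA-LNP, against 0.591, 0.299, 0.577 and 1.15 CPM in the controls (6.33 ± 0.82, adjusted p = 0.000908). Col4a6 was at 46.9, 109 and 122 CPM after ITA-LNP, against 0.788, 0.299, 0.769 and 1.80 CPM in the controls (5.56 ± 0.84, adjusted p = 0.00202). Neither gene overlapped between the groups.

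Col4a3 and Col4a4 encode partner chains and start 71 bases apart on chromosome 1, on opposite strands. With ITA-LNP they were at similar levels, Col4a3 at 22.7, 44.1 and 41.9 CPM and Col4a4 at 26.5, 41.1 and 37.8 CPM. Among the controls, Col4a3 was at 19.7, 22.0, 9.62 and 12.3 CPM, while Col4a4 was at 0.394, 0.449, 2.12 and 0 CPM. Col4a4 rose by 4.49 ± 0.85 (adjusted p = 0.00557; 0.0580 with each library centred on its median). Col4a3 did not pass (1.15 ± 0.70, 95% interval -0.42 to 2.72, adjusted p = 0.319), although its ITA-LNP values all lay above its control-LNP values. The reads gave 1.04 Col4a3 reads per Col4a4 read in the ITA-LNP libraries and 23.3, from 372 and 16 reads, in the control-LNP libraries, a contrast that was picked out after its values were seen and was not tested. The last exon of Col4a3 overlaps an exon of C430014B12Rik on the other strand by 289 bases. How strand entered the counting is not given in the sources used here, so whether reads of that gene were counted for Col4a3 is not known. Opposite-strand exon overlaps were also found in other members, among them Col5a1 (99 and 113 bases) and Col6a4 (127 and 76 bases).

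The beaded filament genes encode type VI collagen, which links cells to the surrounding fibers. Of its 4 tested genes (6 in all) 3 were higher. Col6a3 (chromosome 1, 90765923 to 90843971) was at 298, 321 and 310 CPM after ITA-LNP, against 1.58, 2.24, 0.577 and 0.820 CPM in the controls (7.13 ± 0.71, adjusted p = 0.000238). Col6a1 was at 163, 208 and 96.5 CPM after ITA-LNP, against 1.58, 1.05, 0.962 and 0.984 CPM in the controls (6.13 ± 0.77, adjusted p = 0.000804). Col6a2, 85161 bases from Col6a1 on chromosome 10, was at 72.6, 63.2 and 60.0 CPM and at 0.591, 1.495, 0.385 and 0.492 CPM (5.29 ± 0.81, adjusted p = 0.00206). These 3 chains were at 60.0 CPM or more in every ITA-LNP library. Col6a6 was uneven, at 14.1, 0.147 and 9.06 CPM after ITA-LNP, against 0, 0.598, 0.192 and 0.492 CPM in the controls (2.11 ± 0.95, adjusted p = 0.175; 0.0136 without ITA-LNP replicate 2). Col6a4 had 115 reads in ITA-LNP replicate 2 and 0 in the other ITA-LNP libraries, and Col6a5 had at most 2 reads in any library.

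Among the network collagens, Col8a1 (chromosome 16, 57624258 to 57754737), a chain of the short type VIII collagen of vessel walls, was at 306, 391 and 352 CPM after ITA-LNP, against 1.18, 1.94, 1.35 and 0.820 CPM in the controls (7.25 ± 0.68, adjusted p = 0.000175). Its partner Col8a2 was at 0.157, 21.4 and 0 CPM after ITA-LNP, against 1.58, 0, 0.385 and 0.656 CPM with control-LNP, and did not pass (0.92 ± 1.09, 95% interval -1.53 to 3.38, adjusted p = 0.644). Col10a1 (chromosome 10, 34389981 to 34397085), a collagen of hypertrophic cartilage, was at 69.3, 83.997 and 11.5 CPM after ITA-LNP, against 0.591, 0, 0.577 and 0.164 CPM in the controls (5.01 ± 0.96, adjusted p = 0.00591). The ITA-LNP libraries lay within 1.28-fold of each other for Col8a1 and within 7.28-fold for Col10a1.

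FACIT genes were lower in level and more scattered, and 2 of 5 tested (9 in all) were higher. Col14a1 (chromosome 15, 55307750 to 55520803), found on fibrils of soft tissue, was at 99.0, 149 and 84.2 CPM after ITA-LNP, against 2.17, 0.598, 0.769 and 0.492 CPM in the controls (5.83 ± 0.81, adjusted p = 0.00133). Col9a3, a chain of the type IX collagen of cartilage fibrils, was at 19.0, 37.7 and 52.2 CPM and at 3.94, 0, 3.08 and 0.984 CPM (3.78 ± 0.94, adjusted p = 0.0229). The call was lost on dropping replicate 2 or 3 of ITA-LNP or replicate 3 or 4 of the controls, with an adjusted p of up to 0.0806, and with median centring (2.65, adjusted p = 0.0524). An exon of Col9a3 overlaps an exon of Tcfl5 on the other strand by 234 bases, and whether reads of the 2 genes there were kept apart is not known. Its partner Col9a1 was at 19.9, 0 and 18.7 CPM after ITA-LNP, against 0, 0.449, 0 and 0.164 CPM in the controls (2.71 ± 1.09, adjusted p = 0.133; 0.00625 without ITA-LNP replicate 2), and Col9a2 had 138 reads in ITA-LNP replicate 2 only. Col16a1 was at 11.9, 55.1 and 0 CPM after ITA-LNP, against 0.394, 0.598, 0 and 0 CPM in the controls (2.88 ± 1.23, adjusted p = 0.155; 0.0129 without ITA-LNP replicate 3). Col22a1, a collagen of tissue junctions, overlapped between the groups, at 5.65, 0.295 and 0.137 CPM and at 4.53, 0.150, 4.23 and 1.31 CPM (-0.47 ± 0.93, 95% interval -2.56 to 1.62, not past the threshold). The other FACIT genes, Col12a1, Col19a1 and Col20a1, were below the filter, each with most of its reads in 1 ITA-LNP library (233, 19 and 61 reads).

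Both multiplexins were higher. Col18a1 (chromosome 10, 77052178 to 77166548), a basement membrane component whose end is released as endostatin, was at 825, 878 and 970 CPM after ITA-LNP, against 6.11, 34.98, 2.69 and 6.40 CPM in the 4 controls (6.60 ± 0.75, adjusted p = 0.000485). The control-LNP mean was 12.5 CPM, and 5.06 CPM without replicate 2. That library was also the highest control-LNP library in the summed fibroblast markers (156 CPM), white adipocyte markers (329 CPM) and endothelial markers (364 CPM), whose part in the Col18a1 level was not tested. Col15a1 (chromosome 4, 47208161 to 47313167), found between basement membranes and fibrils, was at 104, 27.9 and 75.5 CPM after ITA-LNP, against 0.985, 0.748, 0.192 and 0.492 CPM in the controls (5.28 ± 0.87, adjusted p = 0.00293).

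Of the transmembrane collagens and the remaining genes, 2 of 7 passed the filter on low values, and neither passed the test. Col23a1 was at 20.2, 0.295 and 0 CPM after ITA-LNP, against 6.11, 0, 3.27 and 1.31 CPM in the controls (0.06 ± 1.20, 95% interval -2.64 to 2.76, adjusted p = 0.982), and the sign of its fold turned when ITA-LNP replicate 1 was left out (-1.35). Col25a1, a collagen of neurons, had 0, 0 and 3 reads after ITA-LNP, against 24, 0, 2 and 7 in the controls. Col13a1 had 16 reads, all in ITA-LNP replicate 1, and Col17a1, a collagen of epithelial attachment, had 2 reads in control-LNP replicate 4. Col26a1 was at 1.88, 11.5 and 0 CPM and at 0.985, 0, 1.73 and 6.89 CPM (0.37 ± 1.06, 95% interval -2.02 to 2.75, adjusted p = 0.869). Col28a1 had 103 reads, all in ITA-LNP replicate 3, and Col7a1, the anchoring fibril of skin, had 0 reads with ITA-LNP and 9 with control-LNP.

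Reads of the scarcer members were uneven between ITA-LNP libraries, about as often as over all genes. Of 35 members that reached 10 CPM in an ITA-LNP library, 11 had 3 or fewer reads in another, which is 31.4%, and the share over all genes was 25.2%. In the control-LNP libraries 8 members reached 10 CPM and none of them fell to 3 reads or fewer in another. The share over all genes was 36.8% there, and 0.627% without control-LNP replicate 2.

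**Figure D3:**
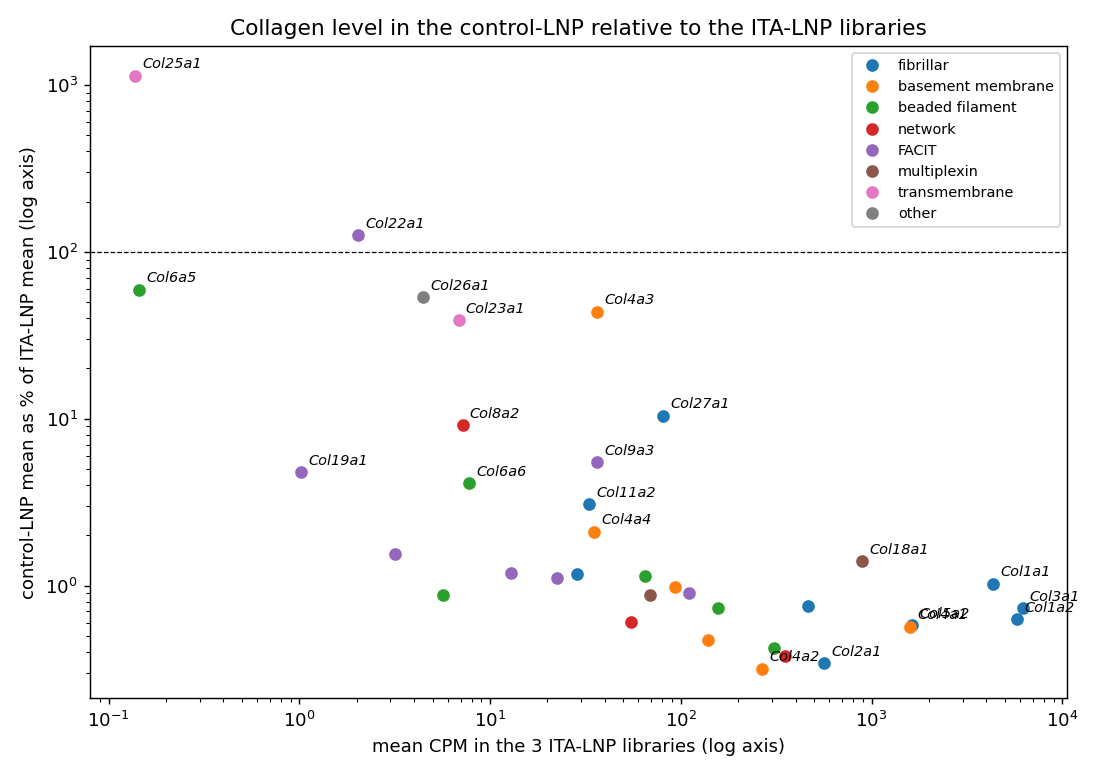
Control-LNP mean CPM as a percentage of the ITA-LNP mean (log axis) against the ITA-LNP mean CPM (log axis), 1 point per collagen gene with reads in both groups; the dashed line marks equal levels. The 14 genes at 100 CPM or more lie between 0.318% and 1.41%, while Col27a1 lies at 10.5%, Col4a3 at 43.9% and Col22a1 at 126%.

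The control-LNP level of the abundant members was a small share of their ITA-LNP level. Over the 14 collagen genes with an ITA-LNP mean of at least 100 CPM the control-LNP mean was 0.318% to 1.41% of it, with a median of 0.602%, and over all 1838 genes of that level the median was 62.1%. Col4a2 had the lowest share and Col18a1 the highest. Of the genes at 10 to 100 CPM, 5 lay above 2%: Col4a4 at 2.11%, Col11a2 at 3.09%, Col9a3 at 5.51%, Col27a1 at 10.5% and Col4a3 at 43.9%.

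Within the collagen reads, the make-up by class differed between the groups, although by far less than the amount. Fibrillar genes took 81.9%, 79.6% and 83.3% of the collagen reads in the ITA-LNP libraries and 73.8%, 67.2%, 70.2% and 73.9% in control-LNP replicates 1 to 4. Basement membrane genes took 9.64%, 9.88% and 8.12%, and 13.2%, 13.5%, 13.7% and 12.8%. For both classes the groups did not overlap. The direction for the basement membrane genes rested on Col4a3, whose count may include reads of the overlapping gene. With Col4a3 left out, an alternative added after seeing the data, they took 9.56%, 9.69% and 7.95% in the ITA-LNP and 6.99%, 4.47%, 7.20% and 6.45% in the control-LNP libraries, and were the larger share after ITA-LNP. The fibrillar share was then 79.8% to 83.4% and 74.2% to 79.3%, 4.74 percentage points apart in the means, against 10.4 points with Col4a3. In the control-LNP libraries the shares rest on few reads, and Col4a3 alone made up 7.49% of the collagen reads there on average, against 0.157% with ITA-LNP. The multiplexin share was 3.77% to 4.39% with ITA-LNP, and 15.4% in control-LNP replicate 2 against 2.09% to 3.83% in the other control-LNP libraries. Beaded filament, network, FACIT, transmembrane and the remaining genes overlapped between the groups.

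**Figure D4:**
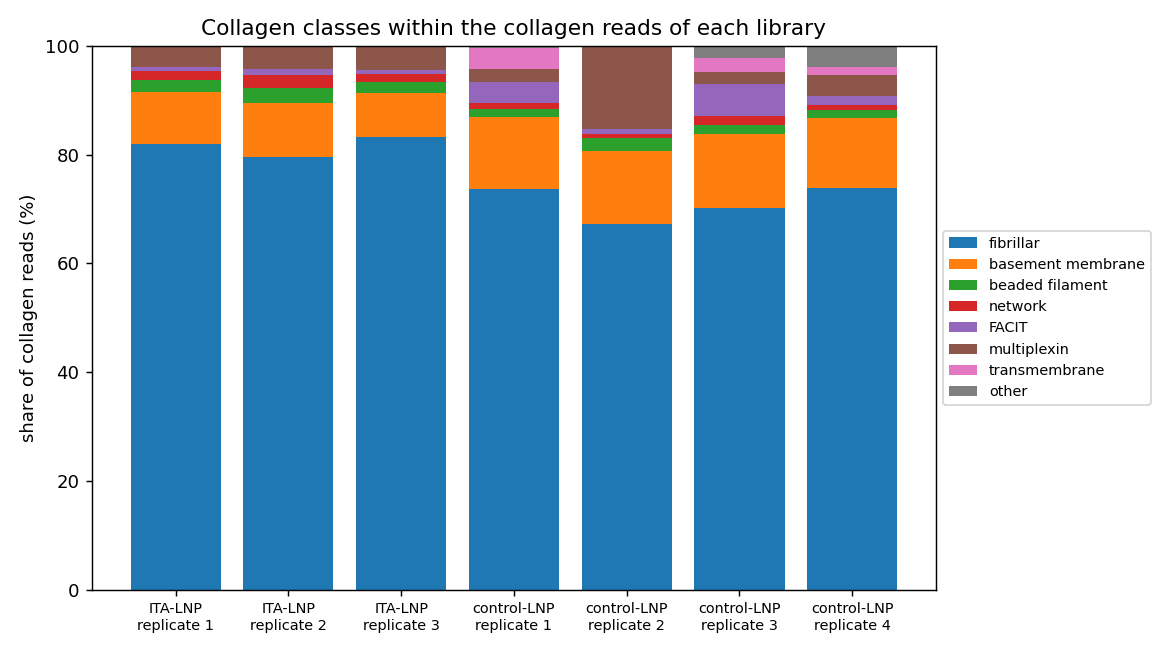
Share of each collagen class in the collagen reads of each library, in percent, as stacked bars for the 3 ITA-LNP and 4 control-LNP libraries. The fibrillar share is 79.6% to 83.3% with ITA-LNP and 67.2% to 73.9% with control-LNP, and control-LNP replicate 2 has the largest multiplexin share at 15.4%.

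Of 4 ratios between chains set for testing, the 2 with at least 10 reads of both genes in every library were tested. The ratios of Col4a3 to Col4a4 and of Col5a1 to Col5a2 were not among the 4 and are given above as values only. Col1a1 was at 0.804, 0.735 and 0.700 of Col1a2 in the ITA-LNP libraries and at 1.31, 0.976, 1.16 and 1.51 of it in the control-LNP libraries. The groups did not overlap, and the log2 ratio was -0.72 apart (exact two-sided permutation p = 0.0571, adjusted over 2 ratios 0.0571; smallest possible p 0.0286). Col3a1 was at 1.42, 1.48 and 1.41 of Col1a1 with ITA-LNP and at 0.830, 1.24, 1.04 and 1.09 of it with control-LNP, with a log2 ratio 0.47 apart (exact two-sided permutation p = 0.0571, adjusted 0.0571). These are ratios of 3′ reads and give no count of chains per molecule.

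Sequences before the start were read for the members with a RefSeq entry (GRCm38.p6), 35 of 44 genes with 38 start windows. The 250 bases before the start were searched on both strands for CCAAT (the CCAAT box), TATAAA (the TATA box) and GGGCGG (the GC box). A CCAAT box was found in 34.2% of the collagen windows and 33.8% of all 32851 windows, a TATA box in 13.2% and 12.4%, and a GC box in 57.9% and 32.7%. A match was counted anywhere in the 250 bases, whatever its distance from the start, so a TATAAA match alone does not make a working TATA box. The most abundant member, Col3a1, and the most abundant network collagen, Col8a1, are shown with the motifs in capitals. The Col3a1 window holds a TATAAA match, at position -117 from the start, and no GC box. The Col8a1 window holds GC boxes and no TATAAA match.
Col3a1 (chr1:45311288-45311537, + strand): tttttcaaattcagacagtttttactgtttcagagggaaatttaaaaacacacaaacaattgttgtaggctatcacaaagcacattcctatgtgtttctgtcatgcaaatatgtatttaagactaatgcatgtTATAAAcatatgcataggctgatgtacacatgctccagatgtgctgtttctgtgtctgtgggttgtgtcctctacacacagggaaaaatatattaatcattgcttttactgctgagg
Col8a1 (chr16:57754738-57754987, - strand): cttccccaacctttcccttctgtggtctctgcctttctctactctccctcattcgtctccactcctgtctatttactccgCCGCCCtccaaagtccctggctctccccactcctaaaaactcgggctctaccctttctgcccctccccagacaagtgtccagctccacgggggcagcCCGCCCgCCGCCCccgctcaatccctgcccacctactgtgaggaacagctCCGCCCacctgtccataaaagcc
Both genes were higher with ITA-LNP (log2 fold changes 7.11 and 7.25), and a match of letters is a description of the window only.

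Genes that build, secrete, sense and cut collagen were read from 5 lists that name 68 genes; the table held 64 of them and 54 were tested. Together 27 were higher and 4 lower with ITA-LNP, where 10.3% of all tested genes were higher and 5.15% lower, and their median log2 fold change was 3.23 (0.15 over all tested genes). The 4 lower of 54, a share near that over all genes, were the receptors Gp6 and Cd44 and the proteases Mmp8 and Mmp9, and their count fell to 1 without ITA-LNP replicate 2, 1 without ITA-LNP replicate 3 and 2 without control-LNP replicate 3.

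In the list of chain modification and folding, 10 of 16 tested genes were higher and 0 lower, beside 10.3% and 5.15% of all tested genes. Their median was 3.66, and of the 22 genes that the list names the table held 18. Serpinh1, which encodes HSP47, the chaperone specific to procollagen, was at 424, 362 and 451 CPM after ITA-LNP, against 4.14, 2.69, 1.15 and 2.30 CPM in the controls (6.92 ± 0.65, adjusted p = 0.000175). Plod2, a lysyl hydroxylase for cross-links, rose by 5.83 ± 0.76 (149 against 1.76 CPM). The prolyl 3-hydroxylase family members P3h3 and P3h4 rose by 5.90 ± 0.81 and 5.33 ± 0.85. P4hb and Ppib, folding enzymes shared with other secreted proteins, were picked out after their values were seen. P4hb, the disulfide isomerase subunit of the prolyl 4-hydroxylases, had means of 135 CPM with ITA-LNP and 35.2 CPM in the controls (1.84 ± 0.52, adjusted p = 0.0388). This call was lost on dropping replicate 2 or 3 of ITA-LNP, or replicate 1, 3 or 4 of the controls (adjusted p up to 0.149). Ppib, a prolyl isomerase, overlapped between the groups, with means of 66.5 and 36.2 CPM (0.99 ± 0.67, adjusted p = 0.379).

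Of 9 tested genes for the export of procollagen from the endoplasmic reticulum, 2 were higher and 0 lower, with a median of 2.39, beside 10.3% and 5.15% of all tested genes. They were Creb3l2, a transcription factor of secretory genes (215, 188 and 133 CPM against 10.6, 1.495, 9.42 and 4.26 CPM; 4.80 ± 0.76, adjusted p = 0.00242), and Sec24d, a coat protein of large export vesicles (4.24 ± 0.91, adjusted p = 0.0111). The Sec24d call was lost when ITA-LNP replicate 1 or 3 was dropped (adjusted p up to 0.0621). Mia3, also picked out after its values were seen, encodes TANGO1, which loads procollagen into vesicles, and had means of 308 CPM with ITA-LNP and 274 CPM in the controls (0.16 ± 0.32, adjusted p = 0.802).

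In the list of propeptide removal and cross-linking, 7 of 9 tested genes were higher and 0 lower, with a median of 5.01, beside 10.3% and 5.15% of all tested genes. Pcolce2, an enhancer of propeptide cleavage, was at 308, 322 and 320.3 CPM after ITA-LNP, against 4.53, 3.74, 1.73 and 1.31 CPM in the controls (6.47 ± 0.67, adjusted p = 0.000305). Lox and Loxl1, which oxidize lysines so that fibers cross-link, rose by 6.59 ± 0.76 and 6.11 ± 0.66, and Adamts2, which removes the amino-terminal propeptide, by 5.49 ± 0.80. All ITA-LNP libraries lay above all control-LNP libraries in these 4 genes, an order found in 19.1% of tested genes. They were picked as the first 4 higher by p, a choice that favors this order.

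Of 12 tested collagen receptors, 4 were higher and 2 lower, with a median of 2.41, beside 10.3% and 5.15% of all tested genes. Ddr2, a receptor kinase of fibroblasts and muscle cells for fibrillar collagen, was at 264, 182 and 189 CPM after ITA-LNP, against 2.56, 2.54, 0.769 and 1.64 CPM in the controls (6.24 ± 0.72, adjusted p = 0.000519). The integrin chains Itga11 and Itga1 rose by 4.11 ± 0.74 and 3.60 ± 0.93, and Mrc1, a collagen-binding receptor of macrophages, by 3.83 ± 0.92. In the opposite direction, Gp6, the collagen receptor of platelets, was at 0.157, 1.62 and 0.549 CPM after ITA-LNP, against 180.4, 254, 92.5 and 143 CPM in the controls (-6.56 ± 0.72, adjusted p = 0.000401). The summed platelet markers of the control-LNP libraries were 65.7 times those of ITA-LNP, and their part in the Gp6 level was not tested. Cd44, which binds hyaluronan and collagen and is common on leukocytes, was at 165 against 654 CPM (-1.96 ± 0.49, adjusted p = 0.0224). The Cd44 call was lost when ITA-LNP replicate 2 or 3 was dropped (adjusted p up to 0.0961) and the Mrc1 call when replicate 1 or 2 of ITA-LNP or replicate 3 of the controls was (up to 0.0922). The Itga1 call was lost when any 1 ITA-LNP library, or replicate 3 or 4 of the controls, was dropped (up to 0.101).

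Of 8 tested genes in the list of collagen cleavage, 4 were higher and 2 lower, with a median of 3.51, beside 10.3% and 5.15% of all tested genes. The list also holds the peptidases Prep and Pepd, which are not collagenases and did not pass (-0.30 and 1.86). Mmp2, a gelatinase of wall cells, was at 189, 123 and 162 CPM with ITA-LNP and under 1 CPM in each control-LNP library (6.73 ± 0.77, adjusted p = 0.000512). The lysosomal collagenase Ctsk rose by 5.91 ± 0.83, the membrane-bound collagenase Mmp14 by 5.46 ± 0.88 and the interstitial collagenase Mmp13 by 5.16 ± 0.88. The neutrophil collagenase Mmp8 was at 0.471, 0.884 and 0.275 CPM after ITA-LNP, against 14.4, 797, 105 and 23.8 CPM in the controls (-5.63 ± 1.32, adjusted p = 0.0168). Mmp9, the gelatinase of neutrophils, was at 3.48 against 113 CPM (-4.86 ± 1.11, adjusted p = 0.0148). The Mmp8 call was lost when any 1 ITA-LNP library or control-LNP replicate 3 was dropped (adjusted p up to 0.0632). The Mmp9 call was lost when replicate 2 or 3 of ITA-LNP or replicate 3 of the controls was dropped (adjusted p up to 0.0620). Leaving out replicate 2, the control-LNP mean was 47.7 CPM for Mmp8 and 60.9 CPM for Mmp9. The summed neutrophil markers were 171 times as high in the control-LNP libraries, with replicate 2 the highest at 25494 CPM, and their part in the level of both proteases was not tested.

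**Figure D5:**
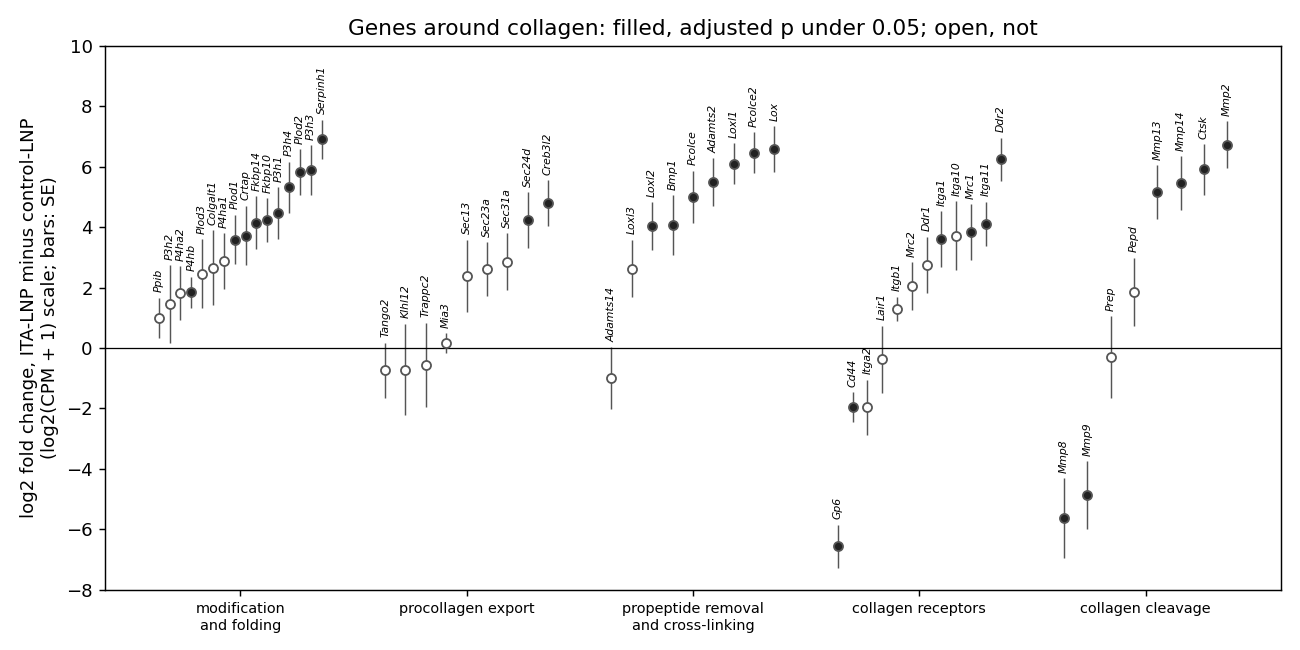
Log2 fold change, ITA-LNP minus control-LNP on the log2(CPM + 1) scale, of the 54 tested genes in 5 lists around collagen, with standard errors; filled points passed an adjusted p of 0.05. The 4 filled points below 0 are Gp6 and Cd44 among the receptors and Mmp8 and Mmp9 among the proteases, and the other 27 filled points lie above 0.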

How the data were processed

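Values deposited by the authors are log10 values, 1 table of 32544 genes and 7 libraries. Per the labels' protocols, total RNA went into QuantSeq 3′ libraries. The submitters' processing notes name mm10. Not given in the sources used here: aligner, counter, annotation and strand setting. Values were read as log10(CPM + 1), because undoing that scale made each column sum to 1000000. These were whole multiples of 1 read for 100% of values (tolerance 0.01), which gave the depths.

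The tests used log2(CPM + 1), with a pseudocount of 1. Genes with a mean of at least 1 were tested with limma-trend (limma 3.58.1, R 4.3.3), no covariate, Benjamini-Hochberg over all tested genes, threshold 0.05. The fit was tested on simulated counts with the same spread setting for every gene and no outlying library. This checks the running of the fit and cannot show how well the calls hold in these data. Summed levels and class shares, for which a permutation test had been designed, are given as description. Members and lists were chosen with earlier results of these data known. Values by library are given for the most abundant members of each class (up to 5 fibrillar, up to 4 in others), for members that were lower or tested without passing, and for some others. Of each list around collagen, the first 4 higher and first 3 lower genes by p are named. Alternatives were other filters, pseudocounts, scalings, priors and sample weights, a replicate block, limma-voom on the recovered reads and leaving out each library. Python 3.11.15, pandas 2.3.3, numpy 2.4.6 and matplotlib 3.10.9 were used.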

Additional observations from a re-analysis of the deposited data

Results flagged for a closer look

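In 5 of 45 sets of 4 control-LNP values that were screened, 1 library lay far from the other 3; chance flags about 1 in 20 such sets, and several of these sets share genes. Control-LNP replicate 2 was high in Col18a1 (34.98 CPM against 2.69 to 6.40 CPM), and with it in the summed multiplexins (35.7 CPM against 2.88 to 7.09 CPM) and in the multiplexin share of the collagen reads (15.4% against 2.09% to 3.83%). Control-LNP replicate 1 was high in Col6a1 (1.58 CPM against 0.962 to 1.05 CPM) and Col14a1 (2.17 CPM against 0.492 to 0.769 CPM). These rest on few reads, 8 against 7, 5 and 6 for Col6a1 and 11 against 4, 4 and 3 for Col14a1. For Col6a1 counting error alone can give such a gap.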

How the results depend on the processing

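Over the alternatives 18 to 27 collagen genes were higher, against 23, and 0 were lower; 18 of the 23 kept their call in all 20 alternatives, and none of the 23 changed sign. Leaving out 1 library gave 21 to 24 higher. For the 5 lists, the count of lower genes was 4, and it was 2 with the replicate block, 2 with voom and 1 to 5 when 1 library was left out. The summed collagen level was 6.84 apart on the log2 scale, 5.71 with libraries scaled to the same median. With Col4a3 left out (chosen after seeing the data), the fibrillar share of the collagen reads was 4.74 percentage points higher after ITA-LNP in place of 10.4, and the basement membrane share turned to 2.79 points higher. Libraries with the same number in the titles showed no shared deviation (correlation -0.0173 to 0.00528, and -0.0322 to 0.0257 for differently numbered libraries). This cannot tell whether the samples were paired. The replicate block gave 18 higher collagen genes. Col11a2 was lost only there (adjusted p = 0.0737). Among all genes, median centring turned 1306 higher and 651 lower into 741 and 1249. Uncalled members changed sign as follows. Col8a2 was at -0.20 with median centring. Col23a1 was at -0.29 with a pseudocount of 0.25, -1.07 with median centring, -0.0474 with the replicate block, -0.59 with voom, -0.69 without control-LNP replicate 2 and with median centring (chosen after seeing the data), and -1.35 to 0.86 when 1 library was left out (below 0 without ITA-LNP replicate 1 or control-LNP replicate 2 or 4). Col26a1 was at -0.76 with median centring, -0.67 with sample weights, -0.32 without control-LNP replicate 2 and with median centring, and -0.59 to 1.23 when 1 library was left out (below 0 without ITA-LNP replicate 2 or control-LNP replicate 2).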
